A study of Mus musculus with 5 samples.

Results

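Between postnatal days 14 and 21 (P14 and P21) the mouse cerebellum passes from the end of granule cell production to the wiring of a near-adult cortex. The change over this week was read from RNA arrays by setting the P21 sample against the P14 sample across all 897 probes of the deposited table. These are 2 of the series' 5 samples of total cerebellar RNA. The others were taken on embryonic day 18 (E18), at P7 and in adults at P56. Per the labels each value is the mean signal of 2 array experiments. No treatment, allele, strain, sex or pooling of animals is given in the sources used here, and nothing says whether the 2 experiments used separate animals. Of the 897 probes, 787 carry a single gene symbol, and these name 773 genes.

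In the postnatal cerebellum, granule cell progenitors divide in the external germinal layer under the control of Sonic hedgehog from Purkinje cells. Their daughters leave the cell cycle, extend parallel fibres and migrate inward past the Purkinje cells along the fibres of Bergmann glia. The external layer then disappears, synapses between parallel fibres and Purkinje cells mature, and oligodendrocytes wrap the axons in myelin.

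Each value was read as a percent of the probe's own highest age, averaged over the 2 experiments, a scale inferred from the numbers and not stated by the authors. A value can therefore be compared only with the same probe at another age, and it does not show how abundant a transcript was. For the same reason the presence of cerebellar markers such as Gabra6, Pcp2 and Calb1 on the array could not test the tissue label. Values under 1% were set to 1% before taking log2, so that a fold against them is a lower bound. With 1 column per age there is no replicate error and no test across samples. The words rose and fell are kept for differences of 2-fold or more between P21 and P14, which is a threshold of size alone. In values of whole tissue, fewer cells of a type and less RNA per cell cannot be told apart.

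The step was mostly downward. The median probe stood at 55.5% at P14 and 42.3% at P21, 638 of the 897 probes were lower at P21 and 259 were higher, and the median log2 difference was -0.35 (5th percentile -1.50, 95th percentile 0.71). In all, 118 probes fell (13.2%), 29 rose (3.23%) and 750 stayed within 2-fold. Over the 773 genes, with probes of 1 gene averaged, 110 fell (14.2%) and 23 rose (2.98%), around a median of -0.38. The majority of falls depended on the scale between the columns. Dividing each column by its median gave 61 higher and 51 lower, and quantile normalization gave 57 higher and 40 lower, so the directions below are relative to the deposited scale. At the edge of the threshold, Psmg4 (49.9% to 24.9%) was counted as a fall and Dtymk (32.7% to 16.4%) just missed it, while Rab3a with a log2 difference of 1.01 was counted as a rise and Gas7 with 0.97 was not.

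As a guide to error, 14 genes have 2 probes. Their differences between P14 and P21 lay a median of 0.47 (log2) apart and at most 1.69, and 12 of the 14 pairs had the same sign. Both probes of a pair were read on the same samples, so this leaves out variation between animals and arrays. On the scale read here, a probe reaches 100% only where its 2 experiments peaked at the same age. Of the 897 probes, 420 reach exactly 100%, and for the others the experiments differed in peak age. The mean of such a probe stays below 100% even at its highest age. If both experiments behind each mean lie between 0 and 100, a shift of over 50 points means that both moved the same way. This held for 18 of the 29 probes that rose and for 15 of the 118 that fell.

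**Figure D1:**
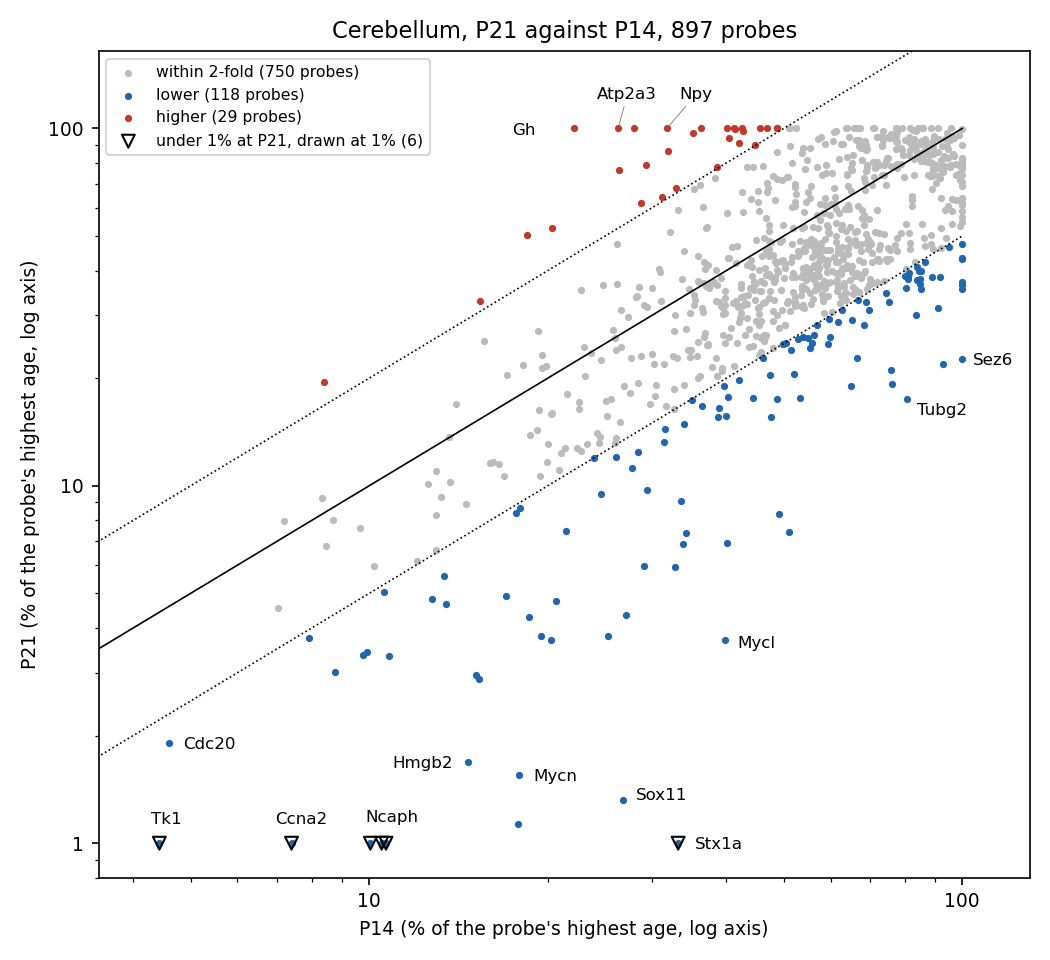
P21 value against P14 value of each of the 897 probes, both in percent of the probe's own highest age on log axes, with the solid line at equal values and dotted lines at 2-fold. The 118 blue probes lie below the lower dotted line and reach down to the 6 probes under 1% at P21 (triangles, drawn at 1%), while the 29 red probes lie above the upper one, many of them at or near 100% at P21.

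Some of the largest falls were in transcription factors of progenitors and new neurons. Sox11, an SRY-box factor of immature neurons, stood at 90.8% at E18 and 93.8% at P7, then at 26.8% at P14, 1.32% at P21 and 1.74% at P56. Over the step this was a fall of 20.3-fold. Its relative Sox4 went from 20.2% to 3.71%, a fall of 5.45-fold. The Myc family genes Mycn, a Hedgehog target that drives progenitor division, and Mycl fell 11.5-fold (17.9% to 1.55%) and 10.7-fold (39.8% to 3.71%). Mycl stood above Mycn in percent of its own peak at both ages. Nhlh1, a basic helix-loop-helix factor of newly formed neurons, fell 2.78-fold, from 48.8% to 17.5%.

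In the list for granule cell progenitors and the Hedgehog pathway 5 of the 10 measured genes fell and none rose, against 14.2% and 2.98% of all named genes. The median was -1.12, against -0.38 for all named genes. Besides Mycn, Mycl and Nhlh1 these were Ccnd2, the cyclin D2 gene of dividing progenitors, at least 10.1-fold lower (10.1% to 0.50%), and Sfrp1, which encodes a secreted Wnt antagonist and fell 6.68-fold from 25.3% to 3.79%. The other members behaved differently. Neurod1, a factor of differentiating granule cells, stood at 96.1% at P14 and 95.2% at P21 and only then at 40.6% at P56. Ccnd1, the cyclin D1 gene, had come down from 80.9% at P7 to 24.9% at P14 and stood at 23.8% at P21 (mean of 2 probes). Ccnd2 had come down further before P14, from 100% at P7 to 10.1%, and unlike Ccnd1 it was lower again at P21. The count of falls was 5 also after median division and after quantile normalization. It was 1 of 10 (median -0.45) when values under 20.4% were set to 20.4%, and 0 of 10 (median -0.08) with 35.8% in its place. All 5 that fell stood under 20.4% at P21.

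Of 9 measured regulators in the Notch, Wnt and Id list, which act on progenitors and their differentiation, 3 fell and none rose, against 14.2% and 2.98% of all named genes. The median was -0.75. All 9 differences were below 0, as were 562 of the 773 over all genes, and the smallest was that of Numb at -0.02. Sfrp1 is shared with the progenitor list. Notch1, the receptor gene, fell 2.59-fold from 24.6% to 9.48%, and Id3, an inhibitor of basic helix-loop-helix factors, 2.51-fold from 44.3% to 17.7%. Hes6, a factor of differentiating neurons, has 2 probes, of which one fell 2.35-fold and the other differed by 1.45-fold. Numb, which encodes an antagonist of Notch, stood at 86.1% and 84.7%. After median division 1 of the 9 fell, and likewise with quantile normalization.

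Genes of dividing cells continued down from levels that were already low. Of 27 measured genes of the cell cycle and mitosis 12 fell and none rose (median -0.84), and of 16 genes of DNA replication 4 fell and none rose (median -0.76). Together 16 of 43 genes (37.2%) fell, against 94 of the other 730 (12.9%). The 2 lists had medians of 18.6% and 22.7% at P14. Of all 89 probes under 25% at P14, 33.7% fell, a share close to that of the division genes. Ccna2, the cyclin A2 gene, stood at 100% at P7, 7.40% at P14 and 0.02% at P21, and Ncaph, which encodes a subunit of condensin, at 97.9%, 10.5% and 0.07%. As bounds, Ccna2 was lower by at least 7.40-fold at P21 and Ncaph by at least 10.5-fold. Cks1b, which encodes a partner of cyclin-dependent kinases, fell 4.32-fold (18.6% to 4.30%), and Cdk1, the mitotic kinase gene, 2.89-fold (9.91% to 3.43%). Among spindle genes, Prc1 fell 2.90-fold, Racgap1, a gene of cytokinesis, 2.39-fold and Aurka, the Aurora A kinase gene, 2.47-fold. Mki67, the Ki-67 antigen gene, fell 2.12-fold from 7.93% to 3.74%, and Cdc20, which encodes an activator of the anaphase-promoting complex, 2.40-fold from 4.59% to 1.91%.

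The cell cycle genes were not all low at P14. Ccne1, the cyclin E1 gene, stood at mean values of 74.9% at E18, 74.7% at P7 and 75.8% at P14 and fell 3.59-fold to 21.1% at P21. Its partner kinase gene Cdk2 stood at 100% at P7 and fell 3.69-fold in this step, from 33.5% to 9.07%. Other genes of entry into S phase stood lower at P14 and stayed within 2-fold, E2f1 at 24.3% and 14.0% and Cdk4 at 26.95% and 19.0%. The mitotic genes Kif20a and Bub3 stood at 48.4% and 37.6%, and at 53.3% and 45.0%. The mean of the cyclin E1 gene at P14 was thus near its E18 and P7 means, while that of the mitotic cyclin A2 had gone from 100% at P7 to 7.40%. Ccne1 reaches 100% at no age, which on the scale read here means that its 2 experiments peaked at different ages. Its near-equal means therefore need not show a level that either experiment held.

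In DNA replication, Lig1, the gene of the ligase that joins Okazaki fragments, fell 5.52-fold from 32.8% to 5.93% and stood at 21.2% at P56. Tk1, the thymidine kinase gene, was at least 4.43-fold lower (4.43% to 0.04%), and Rrm2, a subunit gene of ribonucleotide reductase, fell 2.88-fold. Cdt1, which encodes a factor that loads the replicative helicase, fell 2.08-fold. The helicase genes themselves did not reach 2-fold: Mcm4, Mcm7 and Mcm5 had log2 differences of -0.94, -0.92 and -0.87, Mcm2 and Mcm3 of -0.46 and -0.32, and Pcna, the replication clamp gene, stood at -0.54.

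The falls of the division genes depend on how low values are treated. At P14 the lowest value of any probe was 4.43% and 2 probes were under 5%, while at P21 29 probes were under 5%. Cdc20 ranked 2 from the lowest of all probes at P14 and 11 from the lowest at P21, although its percent was lower at P21, and quantile normalization works on such ranks. With quantile normalization Cdc20 had a log2 difference of 2.15 and Mki67 of 1.08, and 5 of the 27 cell cycle genes were higher and 5 lower. When every value under 20.4%, the 10th percentile, was set to it, 1 of the 27, Ccne1, fell.

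The promoters of the 16 division genes that fell were looked at for the CHR element, TTTGAA on either strand, and for the CCAAT box on either strand, because these paired elements are known from genes of the late cell cycle. The motifs do not overlap each other in letters. The windows hold the 150 bases upstream of the transcription start in RefSeq annotation (GRCm38.p6), and 14 of the 16 genes had one. A CCAAT box was found in 9 of the 14, against 27.7% of all 27025 genes with a window, a CHR in 5, against 10.5%, and both within 1 window in 5, against 2.63%. These are matches of letters, described here without a test. The division genes that did not fall were not counted apart, so a link of the motifs to the fall was not tested. The windows of 4 genes that hold both are printed to show where the motifs lie, 5′ to 3′ on the gene's strand, with both motifs in capitals. They lie at chr10:69352913-69353062 (minus strand) for Cdk1, chr4:118437344-118437493 (minus) for Cdc20, chr3:89418292-89418441 (minus) for Cks1b and chr7:135716380-135716529 (minus) for Mki67. The fifth gene with both is Prc1.
Cdk1: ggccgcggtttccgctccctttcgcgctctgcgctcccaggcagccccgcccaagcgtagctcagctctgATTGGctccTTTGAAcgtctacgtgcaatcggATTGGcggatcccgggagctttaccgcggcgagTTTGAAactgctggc
Cdc20: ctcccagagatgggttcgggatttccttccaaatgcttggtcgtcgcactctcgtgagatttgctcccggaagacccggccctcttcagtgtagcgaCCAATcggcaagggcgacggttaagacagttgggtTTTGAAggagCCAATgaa
Cks1b: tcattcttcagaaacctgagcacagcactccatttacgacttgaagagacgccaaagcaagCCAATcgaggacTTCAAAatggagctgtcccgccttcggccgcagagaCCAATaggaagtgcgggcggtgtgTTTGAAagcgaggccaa
Mki67: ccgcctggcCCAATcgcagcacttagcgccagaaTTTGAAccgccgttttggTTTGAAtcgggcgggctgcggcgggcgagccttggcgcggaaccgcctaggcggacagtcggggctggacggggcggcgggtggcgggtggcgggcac

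In Cdk1, Cdc20 and Cks1b the last CHR lies close to the transcription start, at the right end of the line, with CCAAT boxes, read on one strand or the other, before or beside it, while in Mki67 the matches lie near the left end. The falls of these 4 ran from 2.12-fold for Mki67 to 4.32-fold for Cks1b. Cdt1, Ccne1, Tk1, Lig1 and Ncaph have neither motif in their windows and fell too.

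The chromatin list has 19 measured genes with a median of -0.48, of which 4 fell and 1 rose. This is close to all named genes, of which 14.2% fell around a median of -0.38. The high mobility group genes Hmgb2 and Hmgb3, which encode DNA-bending proteins, fell 8.68-fold (14.7% to 1.69%) and 5.77-fold (40.1% to 6.94%), while their relative Hmgb1 stood at 50.3% and 41.9%. Sinhcaf, whose product belongs to the Sin3 corepressor complex, fell 4.36-fold, and Ezh2, the methyltransferase gene of Polycomb complex 2, 2.10-fold. The 1 that rose was Anp32a, which encodes an acidic nuclear protein and inhibitor of histone acetylation. It stood at 50.5% at E18, 100% at P7, 18.5% at P14, 50.5% at P21 and 22.4% at P56. It rose 2.73-fold in this step and stood lower again at P56. Its relatives Anp32b and Anp32e stood at 32.7% and 27.1%, and at 19.6% and 23.2%. With quantile normalization 2 of the 19 chromatin genes were higher and 2 lower, and Ezh2 had a log2 difference of 0.06.

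**Figure D2:**
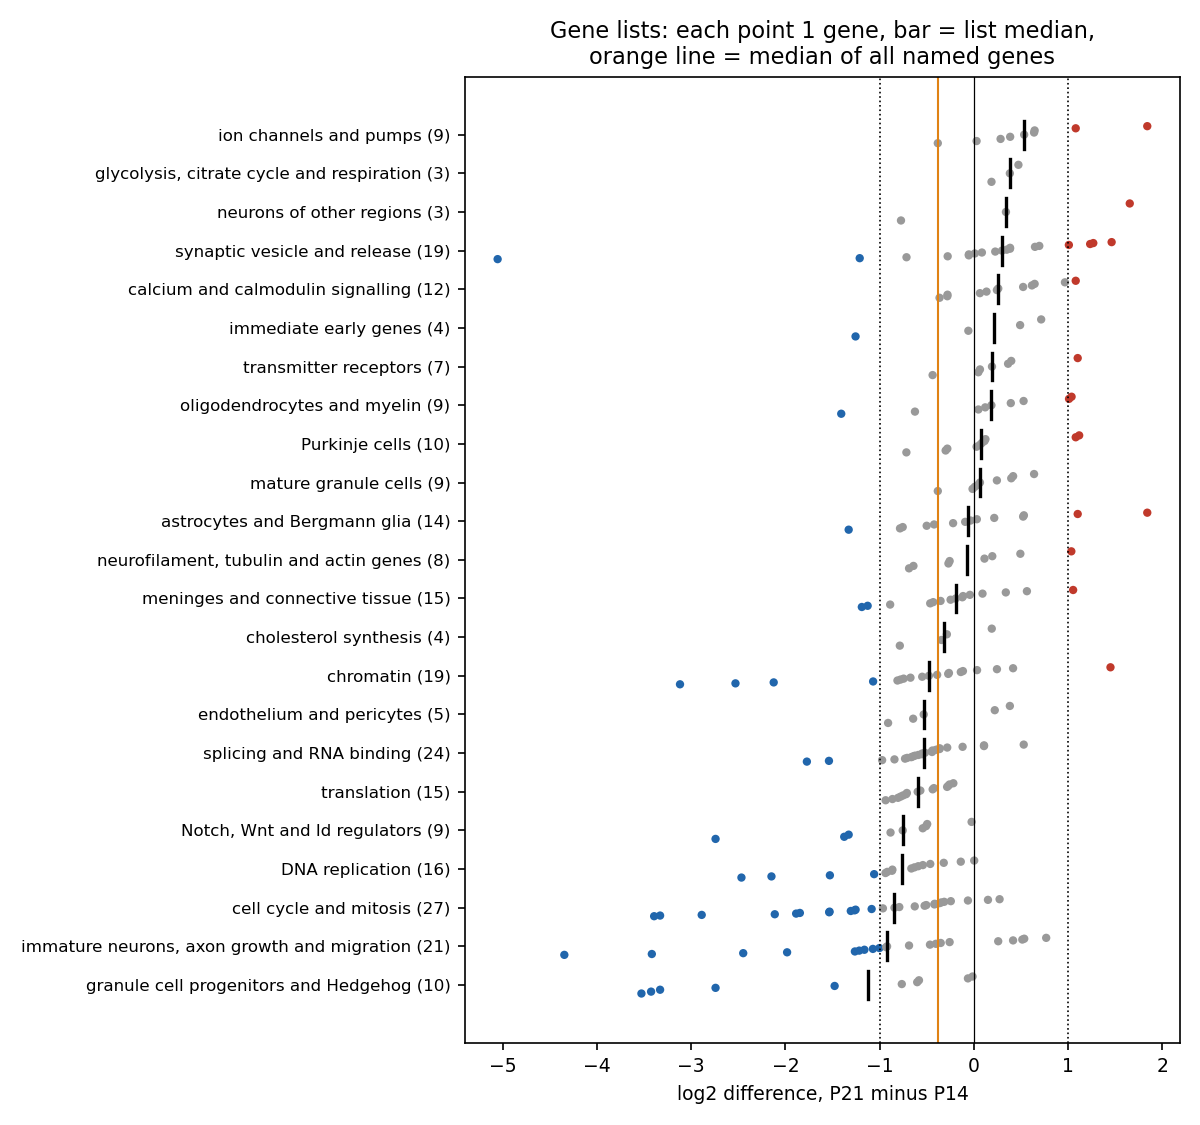
Log2 difference P21 minus P14 of each gene (points), by gene list with the number of measured genes in brackets, for lists of at least 3 genes; bars mark list medians, the orange line the median of all 773 named genes (-0.38) and dotted lines 2-fold. Progenitor, immature neuron and division lists lie lowest, with medians from -1.12 to -0.76, and ion channels and pumps lie highest, with a median of 0.53.

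Immature neurons, with their growing axons and migration, were represented by 21 genes. Of these 9 fell and none rose, against 14.2% and 2.98% of all named genes, around a median of -0.92. After Sox11 and Sox4, Igfbpl1, an insulin-like growth factor binding protein relative expressed by new neurons, was at least 10.7-fold lower (10.7% to 0.57%). Basp1, a growth cone protein gene, fell 3.95-fold, from 76.2% to 19.3%. Its functional relatives Marcks and Marcksl1, which encode membrane-bound regulators of actin, fell 2.24-fold (65.3% to 29.2%) and 2.32-fold (85.0% to 36.6%). Unc5c, the gene of a netrin receptor needed for granule and Purkinje cell migration, fell 2.40-fold from 85.2% to 35.5%. Dpysl3, a collapsin response mediator gene, fell 2.10-fold from 10.6% to 5.05%.

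The Ebf transcription factor genes show how probes can part. One probe of Ebf3 fell 3.23-fold, from 10.8% to 3.35%, and the other differed by 1.24-fold, from 12.6% to 10.1%, so that the count of Ebf3 as a fall rests on the first. Ebf1 and Ebf2 had differences of -0.69 and -0.26. Against the run of the list, Dab1, which encodes the adaptor of Reelin signalling, went from 40.1% to 58.2%, and Runx1t1 from 37.1% to 53.0%. Peg3, an imprinted zinc finger gene, went from 46.2% to 78.7% on the way to 100% at P56. After median division 4 of the 21 fell and 1 was higher. With quantile normalization 4 fell, the list's median was -0.01 and Dpysl3 had a log2 difference of 0.63. When values under 20.4% were set to 20.4%, 4 fell and the median was 0, and with 35.8% in its place 3 fell and the median was again 0.

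The falls differed in when they began. Of the 118 probes, 30 were under 25% of their peak at P14 already, with a median of 14.1% at P14 and 3.57% at P21. Another 58 stood between 25% and 75%, with medians of 47.5% and 17.7%. The last 30 stood at 75% or more at P14 and had medians of 85.1% and 37.8%. The cut points were chosen after the values were seen. Of all 89 probes under 25% at P14 33.7% fell, of the 616 in between 9.42%, and of the 192 at 75% or over 15.6%. The division genes other than Ccne1, Cdk2, Lig1, Cdt1 and Aurka are in the first class.

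The late class, which held its level through P14, is of mixed function. By the rule for named genes it includes Basp1, Ccne1, Cirbp, Unc5c, Dusp6, Marcksl1 and Sh3gl3. The following were named after their values were seen. Sez6, which encodes a seizure-related membrane protein of dendrites, stood at 51.0% at E18, 81.2% at P7 and its peak of 100% at P14, and fell 4.42-fold to 22.7% at P21. Socs2, a suppressor gene of cytokine and growth hormone signalling, fell 4.23-fold, from 92.9% at P14. Bcl2l11, which encodes the pro-apoptotic protein Bim, peaked at P14 and fell 2.68-fold to 37.3%. Ltbp2, a gene of extracellular microfibrils, and Foxn2, a forkhead gene, stood at 100% at P14 and fell 2.82-fold and 2.31-fold. Cry1, which encodes the clock repressor cryptochrome 1, had its peak at P14 as well and fell 2.11-fold. In all, 13 of the 118 falling probes had their highest value at P14, against 74 of the 897 probes. Falls were picked by a P14 value above that of P21, which itself favours a highest value at P14, so nothing is concluded from these counts.

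**Figure D3:**
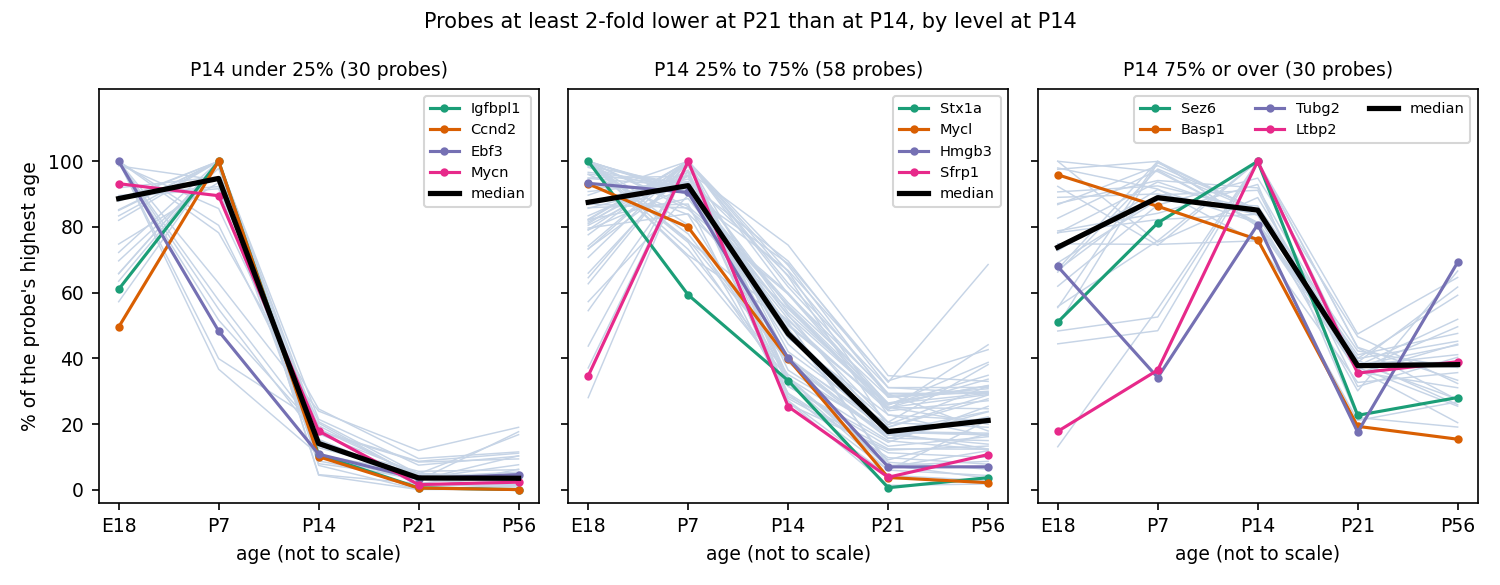
Percent of the probe's highest age at the 5 ages for the 118 probes that fell from P14 to P21, split by their level at P14 into 30, 58 and 30 probes; thin lines are probes, coloured lines named genes and the black line the median. Probes of the left panel had lost most of their level by P14 (median 14.1%), while those of the right panel held a median of 85.1% at P14 and reached 37.8% at P21.

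The change of this week was compared with a contrast that uses neither column, P56 against P7. All 4 columns share the scaling to the probe's peak, so the contrasts are not independent. Of the 118 probes that fell from P14 to P21, 106 (89.8%) were at least 2-fold lower at P56 than at P7, against 52.3% of all probes, and 1 was higher. This 1 probe was Tubg2, a gamma-tubulin gene, which stood at 68.0%, 34.2%, 80.7%, 17.5% and 69.3% at the 5 ages. Of the 29 probes that rose 20 (69.0%) were higher at P56 than at P7, against 18.8% of all probes, and 3 were lower.

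RNA-handling genes were mostly lower at P21 by less than 2-fold, on a scale where 562 of all 773 named genes were below 0. The 15 measured translation genes all had negative differences, with a median of -0.60, and none reached 2-fold. Rps19, a ribosomal protein gene, went from 62.2% to 32.5% and Eif4a1, the gene of an initiation helicase, from 46.3% to 25.5%. Of 24 genes of splicing and RNA binding 2 fell, a smaller share than the 14.2% of all genes, and the median was -0.53. Raly, Khdrbs1 and Srsf9 were above 0, at 0.53, 0.11 and 0.11. The 2 were Rbm3, which fell 3.41-fold from 64.9% to 19.0%, and Cirbp, which fell 2.90-fold from 91.2% to 31.4%. Both encode small RNA-binding proteins known for their induction by mild cold. They fell also with columns divided by their medians and with quantile normalization, where 2 of the 24 fell again, while the medians of the translation list were then -0.20 and -0.25.

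Rises were fewer, 2.98% of all named genes, where falls made up 14.2%. The list for the vesicle cycle of nerve terminals covers 19 measured genes, of which 4 rose and 2 fell, and has a median of 0.30. Syt11, a synaptotagmin gene, stood at 36.3% at P14 and 100% at P21, a rise of 2.76-fold. Vamp2, the gene of the vesicle SNARE synaptobrevin 2, rose 2.35-fold from 42.5% to 100%. Rab3a, which encodes the small GTPase of synaptic vesicles, rose 2.01-fold from 44.7% to 90.0%.

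The partners of Vamp2 in the fusion complex did not follow it. Snap25 stood at 73.8% and 74.3%. Stx1a, the syntaxin 1A gene, stood at 100% at E18, 59.3% at P7, 33.2% at P14, 0.60% at P21 and 3.66% at P56. It was at least 33.2-fold lower at P21. The genes of the machinery that takes the complex apart went up without reaching 2-fold: Nsf from 63.8% to 100%, Napa from 85.4% to 100% and Napb from 51.8% to 83.7% (mean of 2 probes).

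The endophilins, which bend membrane for vesicle retrieval, moved in opposite directions. Sh3gl2, the endophilin A1 gene, rose 2.41-fold from 41.5% to 99.8%, and Sh3gl3, the endophilin A3 gene, fell 2.31-fold from its peak of 100% to 43.2%. Other genes of vesicle retrieval and filling were higher by less: Dnm1, the dynamin 1 gene, went from 73.2% to 90.1%, and Atp6v1a, a subunit gene of the vesicular proton pump, from 67.5% to 88.1%. After median division 6 of the 19 were higher and 1, Stx1a, was lower, so the fall of Sh3gl3 did not reach 2-fold there. With quantile normalization 4 were higher and 1 lower.

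**Figure D4:**
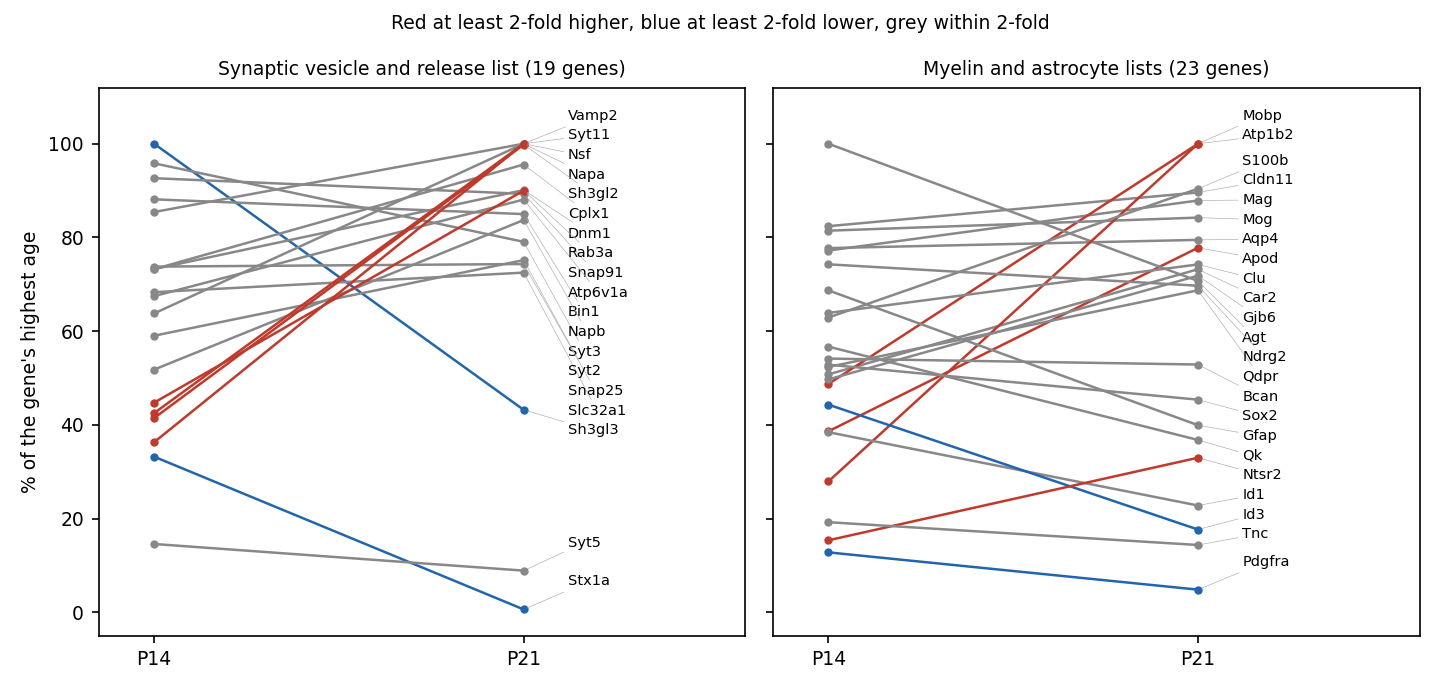
Percent of the gene's highest age at P14 and P21 for the 19 measured genes of the synaptic vesicle list (left) and the 23 of the myelin and astrocyte lists (right); red lines rose and blue lines fell by 2-fold or more, and grey lines stayed within 2-fold. Vamp2, Syt11, Sh3gl2 and Rab3a rose to 90.0% or more while Stx1a went from 33.2% to 0.60%.

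On the deposited scale ion channels and pumps had the highest median of any list with at least 3 genes, 0.53. With quantile normalization it was 0.51, below the 0.87 of the 3 genes for neurons of other regions. Of the 9 ion channel and pump genes 2 rose and none fell, against 2.98% and 14.2% of all named genes. After median division 4 of the 9 were higher. Atp1b2, which encodes the beta 2 subunit of the sodium pump in glia and granule cells, stood at 13.6%, 13.5% and 27.9% at E18, P7 and P14 and rose 3.58-fold to 100% at P21. Atp2a3, a calcium pump gene of the endoplasmic reticulum known in Purkinje cells, rose 3.80-fold on one probe (26.3% to 100%) and differed by 1.18-fold on the other (65.1% to 76.7%), the widest gap of the 14 pairs. Its count as a rise rests on the first probe, and the same gene makes a rise in the Purkinje cell and calcium lists. The related pump gene Atp2a2 went from 63.9% to 100%. Among potassium channel genes, Kcnj9 went from 42.6% to 66.4% and Kcna1 from 62.4% to 90.4%, and Kcnd2 from 82.4% to 63.2%.

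Markers of mature granule cells had mostly arrived by P14. None of the 9 measured genes rose or fell, with a median of 0.07. Gabra6, the granule cell GABA-A receptor subunit gene, had gone from 4.67% at P7 to 94.2% at P14 and stood at 97.4% at P21, and Grin2c, an NMDA receptor subunit gene, at 8.71%, 89.7% and 93.9%. Etv1, a transcription factor gene of maturing granule cells, went on from 66.9% to 89.3%. Among 10 Purkinje cell genes 2 rose, against 2.98% of all named genes. They were Atp2a3, whose count rests on a single probe, and Nptx1, a neuronal pentraxin gene, which rose 2.17-fold from 42.1% to 91.3%. Pcp2 and Slc1a6, the latter a glutamate transporter gene of Purkinje cells, were at 100% at P14 and at 81.3% and 60.9% at P21, and Pvalb stood at 95.6% and 100%.

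Of 7 transmitter receptor genes 1 rose, Ntsr2, a neurotensin receptor gene that astrocytes express, 2.15-fold from 15.4% to 33.0%. The share over all named genes was 2.98%. Ednrb, the endothelin B receptor gene of Bergmann glia, stood at 47.4% and 35.0%. In calcium and calmodulin signalling 1 of 12 genes rose, Atp2a3, again through a single probe. Vsnl1, a neuronal calcium sensor gene, came close, going from 51.2% to 100%. Of 8 neurofilament, tubulin and actin genes 1 rose, Tubb4a, the beta-tubulin gene of myelinating cells and neurons, 2.05-fold from 48.8% to 100%, while Tubb5, a beta-tubulin gene of immature cells, went from 63.0% to 40.4%. Mapre1, which encodes a protein of growing microtubule ends, was lower by -0.64 and -0.73 on its 2 probes.

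For oligodendrocytes and myelin 9 genes were measured. The median was 0.19, and 2 rose and 1 fell, against 2.98% and 14.2% of all named genes. Mobp, which encodes a basic protein of the myelin sheath, stood at 1.08%, 4.63%, 48.7%, 100% and 60.4% at the 5 ages and rose 2.05-fold in this step. With quantile normalization its log2 difference was 0.89, under 2-fold. Mog, Mag and Cldn11, also genes of the sheath, were near their peak at P14 already and stood at 81.4% and 84.2%, 77.2% and 87.9%, and 82.4% and 89.6%. Apod, the apolipoprotein D gene, rose 2.01-fold from 38.6% to 77.8%. Pdgfra, the receptor gene that marks oligodendrocyte progenitors, fell 2.65-fold from 12.8% to 4.82%, but had a log2 difference of 0.20 with quantile normalization.

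The astrocyte and Bergmann glia list has 14 genes, of which Atp1b2 and Ntsr2 rose and Id3 fell. Over all named genes 2.98% rose and 14.2% fell. Atp1b2, Ntsr2 and Id3 are each shared with a list above. The median of the astrocyte list, -0.06, was 0.33 with columns divided by their medians and 0.18 with quantile normalization. Gfap, the intermediate filament gene, had its peak at P7 and stood at 68.7% at P14 and 39.9% at P21. Agt, the angiotensinogen gene, peaked at P14 and stood at 70.7% at P21, while S100b and Gjb6, the connexin 30 gene, went from 62.9% to 90.4% and from 49.7% to 71.8%. Aqp4 was at 77.7% and 79.5%.

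The largest fold rise of any probe was 4.51-fold, in Gh, the growth hormone gene, known from the pituitary. It stood at 36.2%, 29.1% and 22.2% at E18, P7 and P14, at 100% at P21 and at 25.4% at P56. Npy, the neuropeptide Y gene, rose 3.15-fold from 31.8% to 100%. Kcnn1, whose product is a potassium channel opened by calcium, rose 2.91-fold from 26.4% to 76.6%, coming back toward its E18 value of 100%. Car4, a membrane-bound carbonic anhydrase gene, rose 2.76-fold from 35.2% to 97.2%, and Inpp5j, a phosphoinositide phosphatase gene, 2.72-fold from 31.9% to 86.7%. Maf, a transcription factor gene, rose 2.69-fold, Xbp1, which encodes a transcription factor of the unfolded protein response, 2.43-fold from 41.2% to 100%, and Jup, the plakoglobin gene, 2.32-fold. Prkar1b, a regulatory subunit gene of protein kinase A, rose 2.49-fold on one probe and differed by 1.24-fold on the other.

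The largest falls outside the lists were in D430019H16Rik, 15.8-fold from 17.8% to 1.13%, and Zfp57, the gene of a zinc finger protein that guards genomic imprints, 6.86-fold from 51.0% to 7.44%. Nt5dc2 fell 6.22-fold, Ppic, a cyclophilin gene, 5.88-fold from 49.1% to 8.34%, Smoc1, a secreted matrix protein gene, 5.32-fold and Timeless, a gene of the replication fork, 5.13-fold. Cd24a, the gene of a surface protein of new neurons, fell 5.14-fold from 19.5% to 3.79%.

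Markers of other cells that a cerebellar sample can hold were counted too. The list for meninges and connective tissue has 15 genes, 2 of which fell and 1 rose (median -0.19), against 14.2% and 2.98% of all named genes. Nid1, a basement membrane gene, fell 2.28-fold, Fstl1, a follistatin-like gene, 2.18-fold, and Ptgds, the prostaglandin D synthase gene, rose 2.08-fold from 32.9% to 68.3%. The sign of that median was positive with columns divided by their medians (0.20) and with quantile normalization (0.42). None of 5 endothelial and pericyte genes reached 2-fold (median -0.53), with Col4a1 and Col4a2 at -0.91 and -0.64. Of 3 genes in the list for neurons of other regions Npy rose, and Sst, the somatostatin gene, stood at 10.2% and 5.97% and Penk, the proenkephalin gene, at 73.4% and 93.0%. The choroid plexus genes Ttr and Igfbp2 stood at 17.1% and 20.4%, and at 23.1% and 20.2%, and the microglial genes Ctss and Laptm5 at 71.9% and 94.7%, and at 68.7% and 67.3%. Ank1, the only measured gene of the blood cell list, stood at 68.8% and 87.2%. Penk stood at 32.5% at P7 and Ank1 at 14.4%, and both stood at 100% at P56. The mature granule cell list had medians of 10.4% and 96.8% at these ages. Whether Penk and Ank1 came from other cells was not tested, nor was the part of such cells in the other results.

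Metabolic and activity genes showed 1 change of 2-fold, a fall. The share of falls over all named genes was 14.2%. Of 4 immediate early genes Dusp6, a phosphatase gene of the ERK pathway, fell 2.39-fold from 91.9% to 38.5%, while Dusp1 went from 57.8% to 94.8%, Nr4a1 from 71.1% to 100% and Egr1 from 87.8% to 84.4%. The fall of Dusp6 did not reach 2-fold with columns divided by their medians or with quantile normalization. The 4 cholesterol synthesis genes stayed within 2-fold, with Sqle, the squalene epoxidase gene, at -0.79 and Idi1 at -0.34, and so did the 3 measured genes of glucose uptake and glycolysis, with the phosphofructokinase genes Pfkm and Pfkl at 0.47 and 0.19 and Slc2a1, a glucose transporter gene, at 0.38.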

How the data were processed

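Cerebellar RNA was measured on arrays, with 1 column for each of 5 ages. The deposited values, which per the labels are mean signals of 2 array experiments, were read as percent of each probe's highest age. They run from 0.01 to 100, and 420 of the 897 probes reach exactly 100. The sources used here do not give how the authors scaled, corrected and normalized the signals. Gene symbols are those of the platform annotation (1 symbol for 787 probes, several for 16, none for 94). A RefSeq table held 784 of the 787 gene identifiers, and promoters came from RefSeq (GRCm38.p6).

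Log2 differences P21 minus P14 were taken after setting values under 1% to 1%, with a threshold of 2-fold and no test (Python 3.11.15, pandas 2.3.3). The number of arrays limits precision. The calculation was tested on simulated data with large planted changes, no background signal and no difference in scale between columns. That simulation could not show how low values or scale affect the counts. Named genes are, by rule, the 15 largest changes each way, all bounds, all list genes past 2-fold and the 2 most changed of each list of at least 3 genes. Others were named after their values were seen, as examples or exceptions. Members, lists and motifs were chosen with earlier results of these data known. Alternatives were other floors, a pseudocount, other scalings and thresholds, a filter on low values and 1 value per gene.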

Additional observations from a re-analysis of the deposited data

How the results depend on the processing

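Of the counts of 118 falls and 29 rises, falls depended most on low values and on scale. Raising the floor to 20.4%, the 10th percentile, left 63 falls and 27 rises, and raising it to 35.8%, the 25th, left 31 and 22. With columns divided by their medians there were 51 falls and 61 rises, and with quantile normalization 40 and 57. A 3-fold threshold gave 38 falls and 4 rises, and a 1.5-fold threshold 311 and 63. Without a floor, with a pseudocount of 1%, over probes at or above 1% at both ages and with 1 value per gene, both counts stayed within 1.5 times. Quantile normalization turned 9 named falls upward: Cdc20 (2.15), Mki67 (1.08), Dpysl3 (0.63), Pdgfra (0.20), Prc1 (0.20), Cdk1 (0.16), Tk1 (0.081), Racgap1 (0.078) and Ezh2 (0.057). No named rise turned downward under any alternative run. No paired analysis was possible because each age has 1 column. The columns are means, so no array could be left out. The depth of signal over background is unknown.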

Other observations

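At P21 12 probes stood at least 2-fold below both P14 and P56, and 2 at least 2-fold above both. E18 and P7 were left out of this comparison. The 2 were Gh and Anp32a. Anp32a stood at 50.5% at E18, 100% at P7 and 50.5% at P21, so its P21 value was not particular to that age. Among the 12, Smoc1 stood at 15.3%, 2.88% and 17.7% at P14, P21 and P56, Timeless at 15.1%, 2.95% and 10.3%, and Tead2, the gene of a transcription factor of the Hippo pathway, at 9.76%, 3.37% and 7.60%. Cmtm7 stood at 68.8%, 32.7% and 68.6%. Stx1a, Sfrp1, Lig1, Tubg2, Tk1, Pdgfra, Cdc20 and 1 probe without a symbol were the others. These genes were picked by their values.

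Of the 147 probes that changed, 10 have no gene symbol and 1 has several. These 11 include 4 that rose, 1 of which went from 46.9% at P14 to 100% at P21 after 6.88% at E18 and 5.27% at P7.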
